A study of Mus musculus with 9 samples.

Results

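The small RNA of unexposed B16F1 cells was counted in 3 libraries, which are the 3 control libraries among the 9 of the study. B16F1 is an established mouse melanoma line of skin origin from C57BL/6J, with adherent growth, and the study followed its microRNAs (miRNAs) when pigmentation and proliferation were changed. The other libraries, 3 for each agent, came from cells that had received L-Tyr at 5 mM or 5-Brd-2′-dU (BrdU) at 2.5 µg/mL, and they entered no value given here. Control cells received neither agent, and all groups were kept for 72 h in DMEM advance with 10% fetal bovine serum, penicillin and streptomycin. All groups share the genotype of the line, in which the study describes the cell cycle inhibitor p16INK4a as truncated, and the line stands for melanoma in culture only, without the other cells of a tumour. The labels do not say whether the 3 control libraries came from separate passages or days, so the SD over them may be partly technical. The members were every sequence tag listed under a known mouse hairpin, summed by hairpin and arm, which gave 378 mature arms from 294 hairpins with at least 1 count.

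A miRNA is cut from a hairpin precursor by Drosha and Dicer, and either side of the hairpin, its 5p or its 3p arm, may be loaded into an Argonaute protein. The loaded strand finds its target mRNAs mainly through the seed, the bases next to its 5′ end, so arms with the same seed form a family with overlapping targets. In melanocytes and melanoma, miRNAs are known to act on the pigment programme of Mitf, on the cell cycle and on invasion.

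The whole counts of control 1, 2 and 3 were 198810, 424122 and 263808, and tags of known hairpins held 98.5% ± 0.357 (SD, n = 3) of them. A count of 0 still allows up to 3 counts, which were worth 15.1, 7.07 and 11.4 CPM (counts scaled by the whole count of the library) in control 1, 2 and 3. Since PCR copies could not be told from separate molecules, this limit covers counting error only. The paper reports far more sequenced reads per control library than these whole counts. CPM values and the limit for a count of 0 therefore refer to the counted entries and not to all reads. Shares are given below as a percent of the whole count of a library, as the mean ± SD of 3 libraries, and no test was run because there was a single group.

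The mature sequences of the most abundant arms with a RefSeq entry (GRCm38.p6) are shown first, since their seeds set the families described below. The seed, bases 2 to 8, is in capitals, and the arms are ordered by family.
miR-3963: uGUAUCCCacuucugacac
let-7c-5p: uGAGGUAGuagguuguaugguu
let-7a-5p: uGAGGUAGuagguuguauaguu
let-7b-5p: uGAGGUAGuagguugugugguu
let-7d-5p: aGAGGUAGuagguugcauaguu
let-7g-5p: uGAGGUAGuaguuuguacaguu
let-7i-5p: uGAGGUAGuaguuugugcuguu
let-7f-5p: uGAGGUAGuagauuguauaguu
miR-24-3p: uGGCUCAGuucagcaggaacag
miR-92a-3p: uAUUGCACuugucccggccug
miR-99b-5p: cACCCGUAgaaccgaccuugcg
miR-99a-5p: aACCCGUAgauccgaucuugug
miR-27b-3p: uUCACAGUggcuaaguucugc
miR-27a-3p: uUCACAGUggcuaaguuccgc
miR-26a-5p: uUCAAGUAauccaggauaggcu
miR-23a-3p: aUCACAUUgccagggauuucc
miR-211-5p: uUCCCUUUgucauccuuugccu

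The largest entry of unexposed cells was miR-3963, with 26872, 69586 and 57957 counts in control 1, 2 and 3, or 17.3% ± 4.30. Of the counts of its hairpin, 99.97% lay in 1 tag of 18 nt, shown here because it ends in CCA, in capitals, whose last 2 bases depart from the hairpin.
mir-3963 tag: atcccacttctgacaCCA
Counted from the first base of the tag, it differed from the RefSeq hairpin by T17C and G18A, with the hairpin's base first. The paper states that it named a miRNA only at 100% identity with miRBase, which this tag does not have with the RefSeq hairpin. The share given is therefore that of the listed tag and not of an exact miR-3963 sequence. The tag began at base 4 of the mature sequence, so none of its counts held the whole seed. It ranked first in each library, and its SD was the largest of all arms, from the lowest value in control 1 to the highest in control 3. Because an entry of this size presses every other share down, the main values are also given below without it.

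let-7c-5p, a member of the let-7 family that is known to restrain growth by repressing Ras, Hmga2 and Lin28, was second with 13582, 24098 and 19530 counts (6.64% ± 0.877). let-7a-5p followed with 10327, 17088 and 13139 counts (4.73% ± 0.620). Both kept their place among the first 4 arms in every library. miR-24-3p, processed from a cluster with miR-23 and miR-27, had 10219, 18450 and 9999 counts (4.43% ± 0.678), and it was above let-7a-5p in control 2 only. miR-92a-3p, the last arm of the growth-promoting mir-17 cluster, had 6183, 14816 and 10506 counts (3.53% ± 0.437). miR-99b-5p, of a family known to act on mTOR, reached 3.14% ± 0.378, and miR-378a-3p, whose hairpin lies in the gene of the metabolic coactivator PGC-1β, reached 3.12% ± 0.436. These 2 arms changed places between libraries, with miR-378a-3p ahead in control 1 and behind in control 2 and 3.

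let-7b-5p (2.64% ± 0.330), miR-27b-3p (2.47% ± 0.192), miR-30d-5p (2.11% ± 0.324), miR-26a-5p (2.09% ± 0.650), miR-23a-3p (2.06% ± 0.217) and let-7d-5p (1.82% ± 0.368) came next. The remaining arms of the first 25 lay between 1.24% and 1.77%. In falling order they were miR-27a-3p, miR-151-5p, let-7g-5p, miR-125b-5p, let-7i-5p, miR-15b-5p, let-7f-5p, miR-181a-5p, miR-99a-5p, miR-29a-3p, miR-103-3p and miR-211-5p. miR-125b-5p is the vertebrate form of lin-4, miR-15b-5p is known to repress cyclin D1 and Bcl2, miR-29a-3p to repress collagens, and miR-211-5p is the arm best known from melanocytes. miR-26a-5p, known to repress Ezh2, had the widest SD of these after miR-3963, let-7c-5p and miR-24-3p, with 4049, 11740 and 3885 counts, and it ranked 13, 8 and 16 in the 3 libraries.

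**Figure D1:**
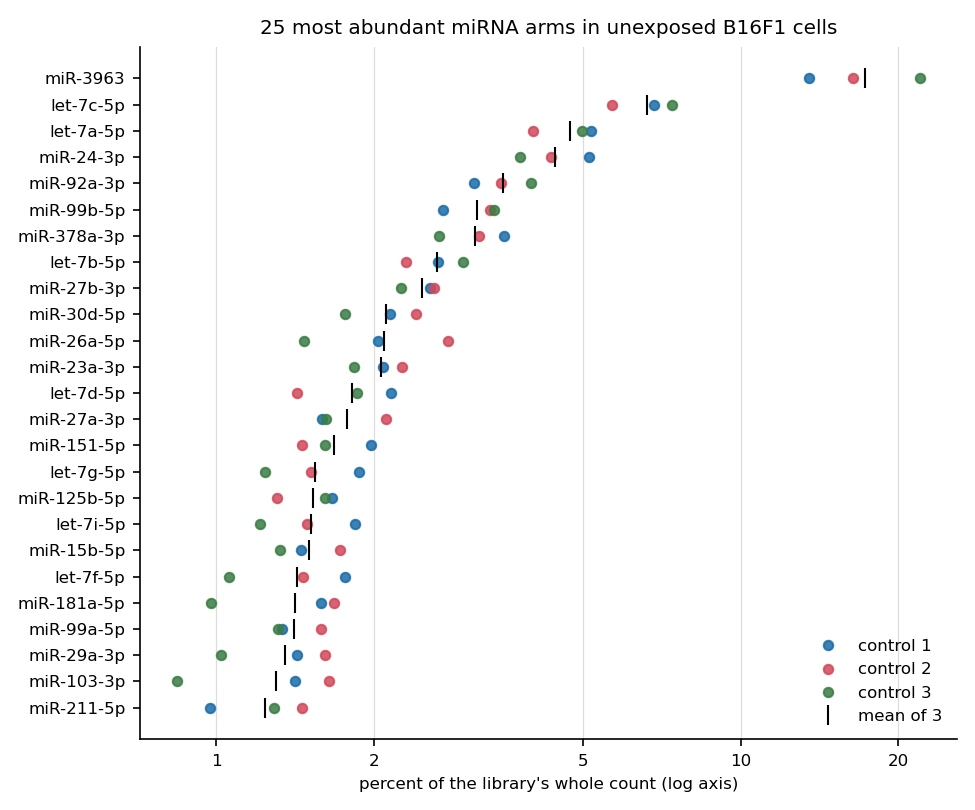
Share of the library's whole count for the 25 largest miRNA arms (log axis), with a point for each control library and a bar at the mean of 3. miR-3963 lies at 17.3% and let-7c-5p at 6.64%, and from let-7a-5p downward the points of neighbouring arms overlap.

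The first 10 arms together held 50.1% ± 4.38 of the counts, and the first 25 held 73.8% ± 1.49. Within known hairpins, 50% of the counts lay in 11, 11 and 8 arms of the 3 libraries and 90% in 52, 52 and 48 arms. Of the first 25 arms, 22 were among the first 25 of every library. The order inside this group was less stable, since only 4 of the 24 neighbouring pairs had the same order in all 3 libraries. These were miR-3963 above let-7c-5p, let-7c-5p above let-7a-5p, miR-92a-3p above miR-99b-5p and miR-27b-3p above miR-30d-5p. In the other 20 pairs the mean difference was below its own SD, so these neighbours did not differ beyond the spread of the libraries.

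By seed, the let-7 family was the largest in unexposed cells, with 9 arms and 20.8% ± 2.27 of the counts, or 25.2% ± 2.79 without miR-3963. Its members were let-7c, let-7a, let-7b, let-7d, let-7g, let-7i, let-7f, let-7e (0.436% ± 0.0539) and miR-98-5p (0.0558% ± 0.0294), and let-7c-5p held 31.9% of the family. The miR-99 and miR-100 family followed miR-3963 with 4.56% ± 0.459, nearly all of it from miR-99b-5p and miR-99a-5p, since miR-100-5p had 16, 80 and 3 counts. miR-24-3p stood alone in its family (4.43% ± 0.678). miR-27b-3p and miR-27a-3p made up 4.25% ± 0.429. The family of miR-92a-3p, miR-25-3p, miR-92b-3p and miR-32-5p held 3.89% ± 0.424, of which miR-92a-3p was 90.7% and miR-32-5p a single count.

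The family of miR-15 and miR-16 held 2.53% ± 0.283, from miR-15b-5p (1.50% ± 0.205) and miR-16-5p with 1969, 4436 and 2439 counts, while miR-15a-5p had 70, 113 and 1. The pair of miR-26a-5p and miR-26b-5p held 2.44% ± 0.769, and miR-23a-3p with miR-23b-3p held 2.40% ± 0.258. In all, 321 seeds had a count, 287 of them in a single arm, and 5 families were enough for 50% of the mean share.

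For arms without a RefSeq entry the seed was read from the largest tag, and in some this tag did not begin at the first base of the arm. miR-378a-3p and miR-30d-5p therefore stood apart from families whose seed their first tags share. With the seed taken from the tag that began furthest 5′ among those with at least 1% of the arm, a choice made after seeing the data, miR-378a-3p joined miR-378c to give 3.69% ± 0.579. The miR-30 family, known for roles in epithelial identity and senescence, held 0.775% ± 0.157 in miR-30a-5p, miR-30c-5p and miR-30e-5p, and 3.26% ± 0.530 once miR-30d-5p and miR-30b-5p were added by name. It would then rank above the miR-15 and miR-16 family.

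**Figure D2:**
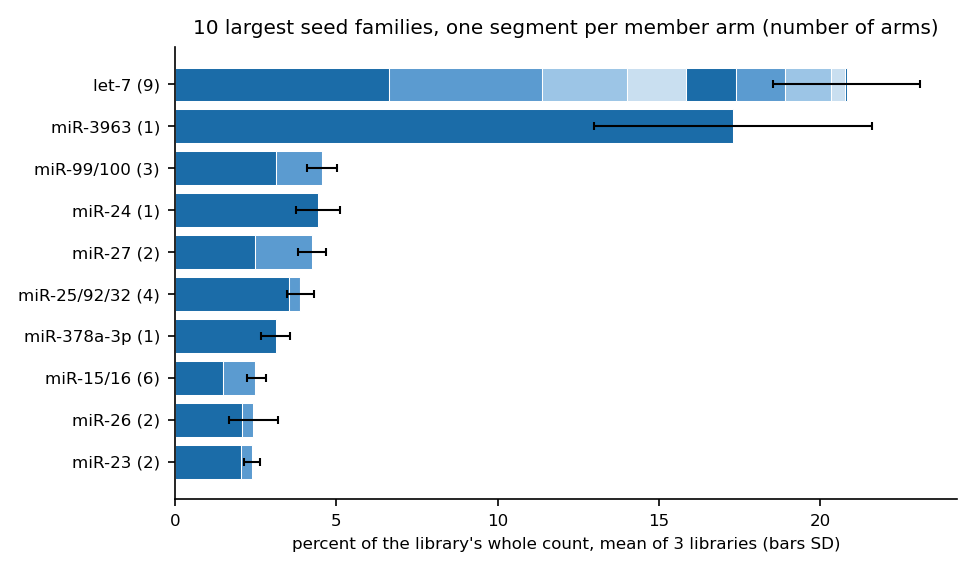
Mean share of the whole count in the 10 largest seed families, with a segment for each member arm, the number of arms in brackets and the SD over 3 libraries as an error bar. The let-7 family spreads 20.8% over 9 arms, whereas miR-3963 holds 17.3% in 1.

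The first base of a mature strand is known to favour loading when it is U. Among the arms with a RefSeq sequence, miR-3963 left out, 38.1% began with U in the reference, beside 40.9% of all RefSeq mature sequences, but these arms held 67.7% ± 0.823 of the counts. Arms beginning with A held 18.6% ± 1.29, those with C 12.5% ± 1.11 and those with G 1.22% ± 0.181. miR-99b-5p (C) and miR-23a-3p, let-7d-5p, miR-181a-5p and miR-99a-5p (A) were the largest arms without an initial U. Much of the share with U came from the let-7 arms, of which all those shown above but let-7d-5p begin with U. The tag itself began at the reference base 1 in only 24.8% ± 0.540 of the counts. Any link of these shares to loading was not tested.

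Arm preference was described for the 134 hairpins with a mean of at least 50 counts. Of these, 50 had at least 90% of their counts on the 5p arm, 50 at least 90% on the 3p arm and 34 lay between. The 5p arms held 67.5% ± 2.07 of the counts, or 60.5% ± 0.928 without mir-3963. The median SD of the 5p share was 0.841 percentage points, so that for most hairpins the arm did not vary between libraries.

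The hairpins with the largest totals on the 3p side were mir-378a, mir-92a-1, mir-27b, mir-24-2 and mir-24-1. mir-92a-1 had 6, 20 and 0 counts on its 5p arm against 5299, 12823 and 8882 on its 3p arm. mir-27b had 22, 0 and 0 against 5092, 11038 and 5938. mir-24-2 kept more of its other arm, with 353, 783 and 613 counts on 5p, a share of 8.46% ± 2.39.

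mir-151, which lies in an intron of Ptk2 (chr15:73085245-73085312, NCBIM37/mm9), the gene of focal adhesion kinase, was the hairpin nearest to equal arms. Its 5p arm had 3918, 6201 and 4249 counts and its 3p arm 2498, 4643 and 3595, a 5p share of 57.5% ± 3.46. mir-30a came next (62.2% ± 3.35), and both hairpins kept the same side in all libraries. The other 3 nearest to equal were of low count and unstable. mir-330 had 48, 25 and 50 counts on 5p and 25, 86 and 0 on 3p, the highest SD of all (38.8 percentage points), mir-877 had 35, 11 and 3 counts on 5p and 18, 20 and 79 on 3p, and mir-17 had a 5p share of 34.1% ± 14.9. In total, 5 hairpins had libraries on both sides of 50%. Among hairpins with higher counts and a sizeable second arm, let-7d had a 5p share of 85.1% ± 5.10 and mir-106b of 26.6% ± 8.85, both chosen after their values were seen.

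**Figure D3:**
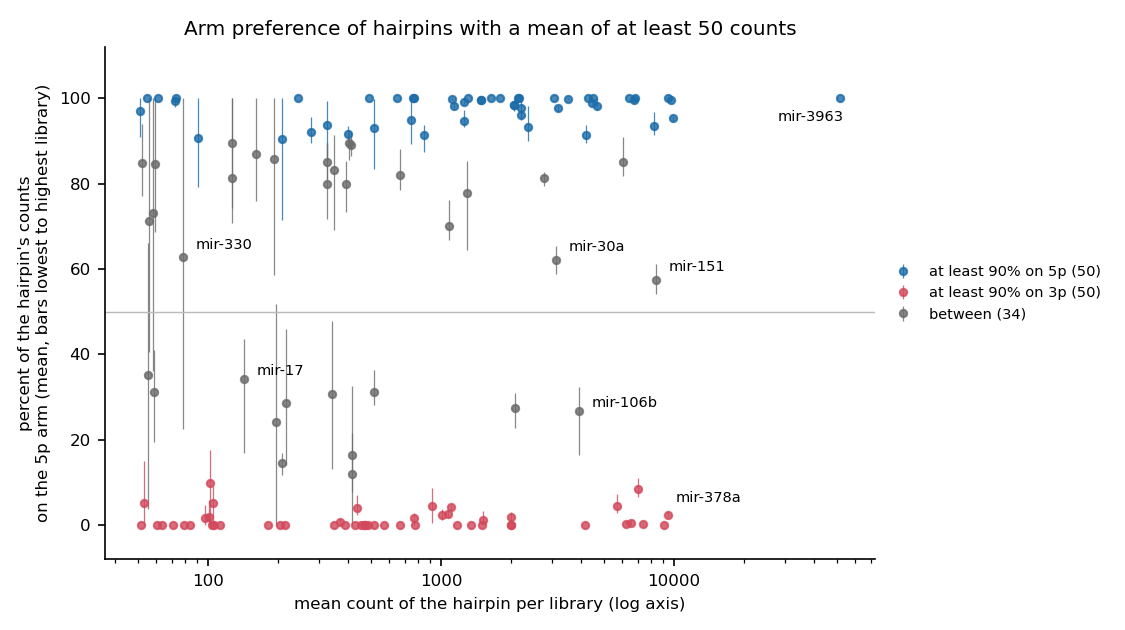
Share of a hairpin's counts on the 5p arm against its mean count (log axis) for 134 hairpins, with the mean as a point and the lowest to highest library as a bar. The points gather near 0 and 100%, the long bars lie at low counts, and mir-151 (57.5%) is the abundant hairpin closest to 50%.

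Several of the largest arms come from copies of a hairpin elsewhere in the genome, and their tags are split between the copies. Entries of 431 tag sequences listed under more than 1 hairpin held 28.4% of the control counts, and among pairs with at least 100 counts the larger entry held a median of 51.5%. The shared arm therefore does not tell the copies apart, but the other arm differs in sequence. For miR-24-3p, the 2 copies had near-equal counts, whereas the other arm had 353, 783 and 613 counts for mir-24-2 and 4, 21 and 57 for mir-24-1. For miR-181a-5p, the other arm of mir-181a-1 had 345, 840 and 352 counts, and that of mir-181a-2 had 17, 27 and 34. For miR-125b-5p, miR-125b-2-3p had 186, 248 and 41 counts and mir-125b-1 had none on its other arm. let-7c-2-3p had 23, 71 and 3 counts and let-7c-1-3p 0, 20 and 0, so these copies differed by less than the range of the libraries. miR-92a-3p could be told apart by its own tags, which had 4506, 10851 and 7448 counts for mir-92a-1 and at most 389 in any library for mir-92a-2.

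The tags of an arm did not share 1 start. They were at most 20 nt long, while the reference sequences of 68.3% ± 2.06 of the counts are 22 nt. The 5 largest tags of let-7c-5p are shown with the seed bases that each still held in capitals, because the tags from base 3 to 6 share their 3′ end while the start moves, and the tag from base 1 ends earlier.
let-7c-5p from base 1: tGAGGTAGtaggttgtatgg
let-7c-5p from base 3: AGGTAGtaggttgtatggtt
let-7c-5p from base 4: GGTAGtaggttgtatggtt
let-7c-5p from base 5: GTAGtaggttgtatggtt
let-7c-5p from base 6: TAGtaggttgtatggtt
miR-24-3p from base 1: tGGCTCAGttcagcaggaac
miR-24-3p from base 3: GCTCAGttcagcaggaacag
The tag of let-7c-5p from base 3 had 4360, 8017 and 6049 counts, or 32.1% ± 1.15 of the arm. Its tag from base 1 had 1205, 2486 and 2554 counts, or 10.8% ± 2.14. In miR-24-3p, the tag from base 1 led, with 6608, 11903 and 6211 counts (63.8% ± 1.43), ahead of the tag from base 3 (18.2% ± 1.53).

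Over all arms with a RefSeq sequence, miR-3963 left out, 24.8% ± 0.540 of the counts began at base 1, 10.4% ± 0.111 at base 2 and 26.9% ± 0.687 at base 3. Starts at base 4, 5 and 6 held 17.2% ± 0.802, 12.8% ± 0.0978 and 7.27% ± 0.334. The ends were less spread, since 96.0% ± 0.0929 of the counts ended within 2 bases of the reference end. Of the counts that began at base 1, 0.191% ± 0.0853 reached the last reference base, and of those that began at base 3 to 6, 85.8% ± 0.584 did. With tags of at most 20 nt, a tag from base 1 cannot reach the end of a 22 nt reference and stops at least 2 bases before it. This contrast was therefore largely fixed by the length of the tags. In all, 35.4% ± 0.467 of the counts held the whole seed. The authors aligned reads of 17 to 35 nt, but no tag was longer than 20 nt. Tags under 17 nt, shorter than any aligned read, held 1.38% ± 0.0687 of these counts. The listed tags are thus not always whole reads, and how they were made is not given in the sources used here. These starts, and the shares with the whole seed, are those of the listed tags and may not be the 5′ ends of the RNA molecules.

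**Figure D4:**
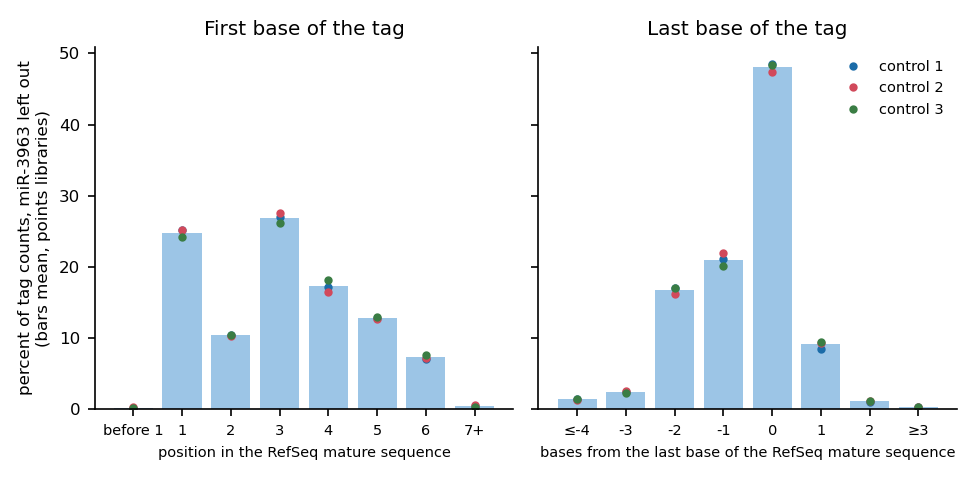
Share of tag counts by the position of the first base in the RefSeq mature sequence (left) and by the distance of the last base from the reference end (right), with bars at the mean and points for each control library. Starts have maxima at base 1 (24.8%) and base 3 (26.9%), and ends have a maximum at the reference end.

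Among 144 arms with a mean of at least 50 counts, the most frequent start held a median of 42.4% of the arm. Of the 128 with a RefSeq sequence, it lay at base 1 in 45, at base 3 in 44, at base 4 in 18, at base 2 in 15 and at base 5 in 5. Fewer than 50% of the counts held the whole seed in 74 of them, and at least 90% did in 7. The share with the whole seed was 90.7% ± 0.922 in miR-27a-3p and 70.4% ± 0.158 in miR-24-3p, but 16.8% ± 1.77 in let-7c-5p, 13.0% ± 1.43 in let-7a-5p and 1.63% ± 0.618 in miR-103-3p. let-7b-5p differed from these let-7 members, with its most frequent start at base 1 and 41.1% ± 2.05 of its counts with the whole seed.

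The 5 arms with the least dominant start among the 50 largest were miR-140-3p, miR-191-5p, miR-31-5p, miR-10b-5p and miR-183-5p, whose reference sequences are shown with the seed in capitals.
miR-140-3p: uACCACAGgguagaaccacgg
miR-191-5p: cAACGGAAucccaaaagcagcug
miR-31-5p: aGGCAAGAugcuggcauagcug
miR-10b-5p: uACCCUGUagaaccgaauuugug
miR-183-5p: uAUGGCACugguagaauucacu
In miR-140-3p, a miRNA known from cartilage, the most frequent start was base 2 with 19.4% ± 4.66 of the arm over 9 starts. In miR-191-5p it was base 4 (24.0% ± 5.43), and in miR-31-5p base 2 (27.1% ± 14.5). miR-10b-5p began most often at base 3 and held the whole seed in 4.77% ± 2.02 of its counts. In miR-183-5p the whole seed was held in 14.7% ± 1.68.

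The counts were also read against lists of miRNAs known from lineages, tissues and pathways, which name no cell type in this line. mir-211, which lies in an intron of the Mitf target Trpm1 (chr7:71350692-71350797, plus strand, NCBIM37/mm9), is the miRNA that marks the melanocyte lineage. It had 2165, 6607 and 3747 counts, or 13557 CPM ± 2410, of which 91.3% ± 2.14 were on the 5p arm. miR-211-5p ranked 25 by mean share. Its close relative mir-204 had 4, 10 and 14 counts in 3 tags. The tags are shown beside both references because base 17, in capitals, differs between them.
miR-204-5p: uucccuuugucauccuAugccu
miR-211-5p: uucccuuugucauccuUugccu
mir-204 tag of 8 counts: ttccctttgtcatcctTtga
mir-204 second tag of 8 counts: ttccctttgtcatcctTtgt
mir-204 tag of 12 counts: cctttgtcatcctTtgcctt
All 28 counts carried A17T against the reference of miR-204-5p (position counted from the first base of the mature sequence), which is the base that miR-211-5p has there, and none occurred exactly in the mir-204 hairpin. Each of these tags differed from mir-211 at fewer positions than from mir-204.

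Among the miRNAs known to act on Mitf, mir-148b had 650, 1897 and 956 counts (3789 CPM ± 618), mir-152 reached 1341 CPM ± 533 and mir-182 reached 323 CPM ± 78.1. Tags that match the hairpin exactly in NCBIM37 held 50.2% of the tag counts of mir-148b, 80.8% of mir-152 and 93.8% of mir-182. The level of mir-148b thus rests in large part on tags with a mismatch. mir-137 and mir-148a had no count. Of the miRNAs known from melanoma progression, mir-21a had 388, 936 and 143 counts (1567 CPM ± 897), which put control 3 well below the others. mir-221 and mir-222, which repress p27 and Kit and lie in 1 cluster, were low. mir-221 had 25, 33 and 5 counts (74.2 CPM ± 53.5, or 48.4 without control 1), and mir-222 had 3 counts, all in control 3. mir-34a, mir-34b and mir-34c, the targets of p53, summed to 52.7 CPM ± 54.6, or 21.3 without control 1, and no member had counts in all 3 libraries.

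The cell cycle list, with 15 of its 20 members counted, summed to 8.58% ± 0.515 of the counts, led by mir-92a (35333 CPM ± 4351), mir-15b (15298 ± 2274) and mir-106b (13130 ± 1031). In the mir-17 cluster the hairpins were far from equal. mir-92a reached its level through mir-92a-1, while mir-17 had 163, 184 and 83 counts, mir-18a 59, 48 and 50, mir-20a 10, 20 and 6, and mir-19a none. Over the 5 hairpins of this cluster with a count, mir-92a-1 was 754 times the level of mir-20a. mir-106a, mir-18b, mir-20b and mir-363 had no count.

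In lists from other tissues and from gene clusters, a few members were abundant. Of the list known from neurons and brain, mir-128 (5354 CPM ± 1914) and mir-9 (4122 CPM ± 887) were abundant, whereas mir-124, the hallmark of neurons, had no count. The other members of this list were low or at 0. mir-132 reached 303 CPM ± 160, mir-212 had 0, 57 and 33 counts and mir-219a 0, 20 and 0. mir-218 had a single count, and mir-153 and mir-219b had none. Of the sensory list, mir-183 reached 7621 CPM ± 1425 and mir-184 reached 1588 CPM ± 362, while mir-96, from the cluster of mir-183, had 2, 17 and 12 counts. Of the Hox cluster list, mir-10b, in an intron of Hoxd3 (chr2:74564127-74564194), reached 10420 CPM ± 1555, mir-10a reached 88.8 CPM ± 44.3 and mir-196a had no count. mir-196b had 36, 58 and 71 counts and mir-615 had 9, 26 and 23.

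Most markers of other cell types were low or had no count, and in RNA from a whole culture a low level in all cells cannot be told apart from a higher level in few cells. mir-142a, mir-142b, mir-150 and mir-155, known from leukocytes, had no count, and mir-223 had 1, 19 and 2. Of the erythroid list, mir-451a had 0, 2 and 4 counts and the other 3 members none. mir-126a of endothelium had 23, 46 and 14 counts (92.4 CPM ± 34.3), and mir-126b had none. Of the stromal and smooth muscle list, mir-143 had 414, 813 and 234 counts (1629 CPM ± 648), mir-199a reached 686 CPM ± 279 and mir-199b 356 CPM ± 108. In contrast, mir-145a, from the cluster of mir-143, had 0, 11 and 34 counts, mir-214 a single one and mir-145b none. Of the epithelial list, which holds the mir-200 family that represses Zeb1, mir-203 had 43, 78 and 60 counts (209 CPM ± 22.6), mir-200c had 1, 1 and 24 and mir-141 a single count, while mir-200a, mir-200b, mir-429 and mir-205 had none. Of the gut and kidney list, mir-192 had 51, 33 and 18 counts (134 CPM ± 106, or 73.0 without control 1) and mir-194 reached 90.6 CPM ± 59.9. mir-215 had 8, 0 and 0 counts.

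Some lists had no count at all in unexposed cells. Over the 21 lists, 102 of 169 different members had a count of 0 in all 3 libraries (60.4%, beside 62.0% of all hairpin names numbered under 1000), 8 had at most 3 counts in each library and 59 had more. All members were at 0 in the lists of muscle (8, mir-1a, mir-133a and mir-206 among them), liver (1, mir-122), endocrine and exocrine pancreas (4, with mir-375), pluripotent cells (14, the mir-290 and mir-302 clusters) and X-linked testis miRNAs (16, such as mir-465a, mir-470 and mir-743a). The paper, however, reports RT-qPCR of both arms of mir-470 in this line, relative to unexposed cells. A count of 0 for mir-470 therefore does not show that it is absent from the cells. Of the imprinted Dlk1-Dio3 cluster, a maternally expressed group of hairpins, 34 of 38 had no count and mir-136, mir-379, mir-380 and mir-654 had 1 or 2 counts in all. In the let-7 list, let-7k had none, let-7j had 5 counts in control 1, and let-7h was not analysed here. A count of 0 leaves room for up to 15.1, 7.07 and 11.4 CPM in the 3 libraries.

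**Figure D5:**
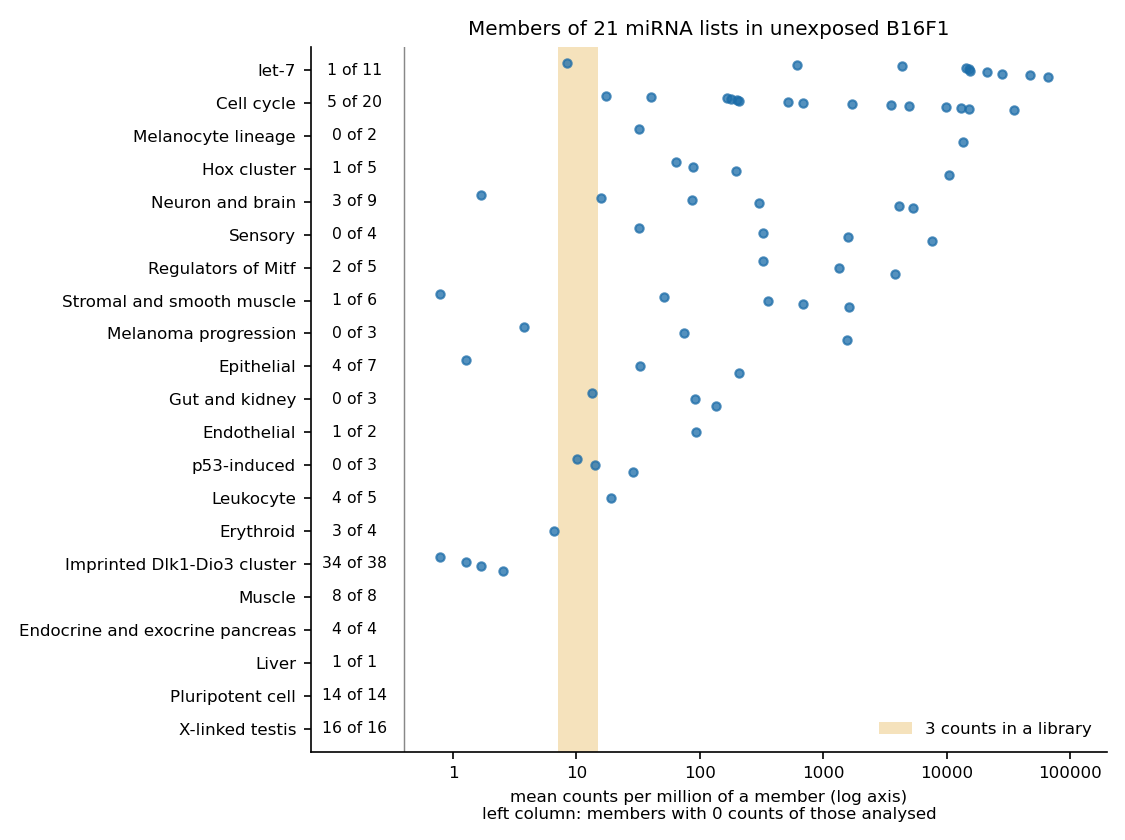
Mean level in CPM (log axis) of each member with a count in 21 lists, with the number of members at 0 counts on the left and the range that 3 counts are worth in the 3 libraries shaded. mir-211 of the melanocyte lineage lies at 13557 CPM, and 5 lists from muscle to X-linked testis have no point.

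By RefSeq seed, 78 families had at least 2 hairpin names numbered under 1000, and 30 of them had no count. Over the 561 seeds of this grouping, those of a single name included, 368 had no count. Among the 30 were the family of miR-291a-3p, miR-294-3p, miR-295-3p, miR-302b-3p and miR-302d-3p, that of miR-208a-3p and miR-208b-3p, and that of miR-465a-5p with its copies. Others were the second arms of counted hairpins, such as miR-103-1-5p, miR-103-2-5p and miR-107-5p. A seed without a count is thus not always one of hairpins without a count. Of all 450 hairpin names numbered under 1000, let-7 included, 279 had no count and 136 had a count in every library. Of the 652 names numbered 1000 or more, 549 had no count, 25 had a count in every library, and without mir-3963 they held 0.911% ± 0.0967 of the counts.

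Hairpins that lie within 10000 bp on 1 strand were compared where their tags matched the gene in NCBIM37 (mm9), which held for 186 of the 294 hairpins. Of these 186 hairpins, 70 lay in an intron of a protein-coding gene on the same strand, 16 overlapped an exon and 100 lay elsewhere, and 78 fell into 32 clusters. Among the abundant hairpins, mir-15b lay in an intron of the condensin gene Smc4 (chr3:68813678-68813775), mir-106b in an intron of the replication gene Mcm7 (chr5:138606965-138607046), let-7g in an intron of Wdr82 (chr9:106081171-106081258) and mir-26a-2 over an exon of Ctdsp2 (chr10:126432586-126432669). The cluster of mir-23a, mir-27a and mir-24-2 (chr8:86732417-86732820) held 6.32% of the counts, and its hairpins were within 1.29-fold of each other. let-7c-2 and let-7b (chr15:85537033-85537833) held 6.20% and were within 1.19-fold. Because miR-24-3p and let-7c-5p are shared with other copies, these levels rest on the split of the tags. Other clusters were uneven. mir-29a was 354 times mir-29b-1 (chr6:31012660-31013097), which had 16, 13 and 1 counts, and 767 times without control 1. In the others mir-183 was 239 times mir-96 (chr6:30115918-30119737) and mir-99b was 14.2 times mir-125a (chr17:17967152-17967851).

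The spread between the control libraries depended on abundance. The coefficient of variation (CV) had a median of 15.3% over the 27 arms of at least 1% share and of 18.9% over the 59 arms from 0.1% to 1%, whereas counting alone gave 1.47% and 3.83%. It rose to 46.4% from 0.01% to 0.1% and to 153% below, where 46 of 208 arms had a count in every library. Of the arms of at least 0.1%, miR-106b-3p (1844, 4015 and 2631 counts, CV 3.77%) and miR-107-3p (CV 3.84%) varied least, and miR-1198-3p, a 5p arm by its RefSeq name (321, 449 and 946 counts, CV 63.7%), miR-93-5p (467, 900 and 120, CV 63.0%) and miR-21a-5p (CV 57.2%) varied most. These 5 were chosen after their values were seen. Over the 86 arms of at least 0.1%, the correlation of log2 shares was 0.973 between control 1 and 2 and 0.943 and 0.939 for control 3 with each of them, as a description across arms, which are not independent. Control 3 thus stood furthest from the others, and without it miR-3963 held 15.0% and the let-7 family 20.6%.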

How the data were processed

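Small RNA was isolated from lysed B16F1 cells, enriched for short RNA and sequenced. The authors processed reads of 17 to 35 nt with the BaseSpace Small RNA app (version 1.0) against mm9 and miRBase 21, and deposited raw counts, not normalized, for sequence tags under known hairpins, for mature names and for predicted hairpins. The deposited normalized table and the authors' comparison tables, which hold fold changes and p-values, were not used.

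Tags were summed by hairpin and arm (start under 35 is 5p, otherwise 3p) and then by mature name. A tag sequence listed under several hairpins had different counts in its entries, so they were summed. Seeds are bases 2 to 8 of RefSeq mature sequences (GRCm38.p6), which 342 of 378 arms have, and otherwise of the largest tag. Arm preference and starts need a mean of at least 50 counts. Tags were matched to NCBIM37 by exact sequence, and a hairpin was called matched when such tags held at least 50% of its counts. Values are means ± SD of 3 control libraries, with whole counts from 198810 to 424122. No comparison or test was made. Named arms were the 25 largest, the 10 largest families and their copies, the 5 hairpins nearest to equal arms, the 5 largest on 3p, the 5 arms with the least dominant start and the listed families. miR-1198, called 3p by position, is a 5p arm by its RefSeq name.

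Python 3.11.15, pandas 2.3.3, numpy 2.4.6, scipy 1.17.1 and matplotlib 3.10.9 were used, with scaling factors from edgeR 4.0.16 and DESeq2 1.42.0 in R 4.3.3 for alternatives. Leaving out each library for clusters and list members was added after seeing the data. The summing steps were tested on simulated data. The members and lists were chosen with earlier results of these data known.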

Additional observations from a re-analysis of the deposited data

Results flagged for a closer look

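Counts outside the tags of known hairpins were small. Entries that carry only a mature name held 0.0939% of the whole count (234, 458 and 148 counts), led by miR-28c (30, 38 and 36) and miR-378b (22, 25 and 46), above the 3 counts that a count of 0 allows.

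Entries of predicted hairpins held 1.43% of the whole count (3236, 4256 and 4370 counts). Some of these entries name a known hairpin, 12 in all, each of which also has tags of its own, and their 5010 counts were not added to the arms. The largest was mir-22, with 603, 1112 and 787 counts in predicted entries beside 590, 1040 and 666 in its own tags, followed by mir-671 with 117, 312 and 223 beside 45, 153 and 120. For mir-17 these entries had 82, 98 and 88 counts. None of the listed miRNAs without a count is named there.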

How the results depend on the processing

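The first 25 arms, the arms needed for 50% and 90% of the counts and the number of absent members stayed within 1.5 times of the values given above under every alternative run for them. For the absent members each alternative can only keep or raise the number, so that it did not fall was fixed in advance. At least 22 of the first 25 arms were kept, the arms for 50% were 9 to 13 (without mir-3963, 13 when shares were rescaled in each library and 14 when they were not) and for 90% 51 to 56, and the absent members 102 to 110. Without each library in turn, miR-3963 ranged from 15.0% to 19.2%, the let-7 family from 19.8% to 22.0% and the median share at the most frequent start from 41.8% to 43.3%. With mir-3963 left out the let-7 family held 25.2%, and miR-3963 then has no value. With shared sequences counted in 1 entry the let-7 family held 16.8%. With only tags that match the hairpin exactly (tags without a reference were kept), miR-3963 fell to 0.00693% and the let-7 family held 25.2%. With the seed read from each tag itself, the let-7 family held 2.43%, since tags that begin past base 1 then enter other families, and the 8 other families with a value moved too. Without a minimum count, 114 hairpins preferred 5p and 126 preferred 3p, and with a minimum of 200 counts the median share at the most frequent start was 36.4%. Of the 24 other arms, 17 moved by more than their SD without mir-3963, 15 with shared sequences counted in 1 entry and 18 with exact tags. None moved with TMM or DESeq2 scaling, the denominator of known hairpins or tags of at least 17 nt. Pooling the libraries or leaving any library out moved none either. These 2 changes cannot shift a mean of 3 libraries by more than its SD, so that outcome was fixed in advance. No paired analysis was possible because only 1 group was described.

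Depth limits arms below 0.01% of the counts, most of which lacked a count in at least 1 library. The source copy of shared arms and the place of counts in the genome for unmatched hairpins were not determined.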
